A study of Arabidopsis thaliana with 16 samples.

Results

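A set of 83 probe sets had lower signal in lhy cca1 seedlings of Arabidopsis thaliana than in WS wild-type seedlings at all 4 times sampled around dawn. They were chosen out of 22746 probe sets of the ATH1 array by 2 conditions on the deposited signals. On the log2 scale, the mean of the lhy cca1 arrays had to lie at least 0.5 below the mean of the WS arrays at each time, and the mean linear signal of the 8 WS arrays had to be 40 or more. The genotype differences given for these probe sets are therefore descriptions of the values that selected them, with no test behind them. Changes with time were not part of the genotype condition and were tested. The signal minimum took in the WS arrays of all 4 times, so a high signal at some times could bring a probe set in.

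LHY and CCA1 are a pair of MYB-type transcription factors that act in the morning in the plant circadian clock, the timekeeper that lets a plant anticipate dawn and dusk. Their transcripts peak around dawn, and the proteins are best known for repressing evening-phased clock genes such as GI. Many clock-controlled outputs, among them flavonoid synthesis, photosynthesis and wall growth, have daily rhythms set by such factors.

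The series compared lhy-21; cca1-11, a double mutant with T-DNA insertions in the Wassilewskija (WS) background, with WS wild type, stock N6891. Whole seedlings were harvested 9 days into growth, 15 min ahead of dawn and then 15, 30 and 60 min past dawn, with 2 samples per genotype and time. All had been kept for 4 days at 4 °C in the dark and then grown at 22 °C on Murashige and Skoog medium with 3% sucrose and 2% agar, in sealed dishes under 18 h of light of 60 to 65 µE and 6 h of dark. Whether replicates were grown as separate cultures is not labelled, and the p-values rest on the spread between these samples alone, which may be technical. There was no group kept in the dark past dawn, so light and time of day cannot be told apart. In whole seedlings, fewer cells of a type and less RNA per cell cannot be told apart either.

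The 2 replicates of a group correlated at 0.961 to 0.981 over the 14878 probe sets bright enough to be tested, and array medians lay between 33.6 and 38.3. The lhy cca1 replicate 2 arrays stood apart in a control. Their 25S rRNA signal lay between 258 and 569, against 62.8 to 253 on the lhy cca1 replicate 1 arrays and 57.7 to 163 on the 8 WS arrays. The ratio of 3′ to 5′ signal of the GAPDH control, a sign of RNA quality, was 0.94 to 1.17 in lhy cca1 and 0.968 to 1.18 in WS. For the actin control it was higher on every array, 3.25 to 4.16 in lhy cca1 and 3.57 to 4.62 in WS. The mutated genes LHY and CCA1 have no named probe set in the annotation used here, so the genotype labels could not be checked against them. Of the marker lists, the shoot gene RCA, which encodes rubisco activase, had a signal of 5613 to 7825 in lhy cca1 (median 6374) and of 6028 to 7186 in WS (median 6800). The root gene PYK10, a beta-glucosidase of root endoplasmic reticulum bodies, had 3352 to 4494 in lhy cca1 and 3242 to 4452 in WS. Neither passed the genotype test, and each was the only gene of its list with a probe set, out of 11 shoot and 14 root markers. None of 13 seed markers had a named probe set.

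Annotation was sparse for these transcripts. A single gene is listed for 39 of the 83 (47%), against 59.4% of all probe sets, and 8 of these have a symbol while 31 carry a locus tag only. For 1 probe set several genes are listed, and for 43 none, so these appear by probe set identifier. A further caution on identity applies to the 3 probe sets whose identifiers end in _s_at, which by design match more than 1 transcript.

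Most of the differences were moderate. Over the mean of the 4 times, lhy cca1 minus WS was -2 or lower for 6 members, between -2 and -1 for 27, between -1 and -0.75 for 28, and closer to 0 for 22, with low signals taken as measured. The median was -0.91, or 1.88-fold lower in lhy cca1, while the median over all 14878 probe sets tested was 0.02. The gap kept about the same size around dawn: its median was -0.83 before dawn, -0.86 at 15 min, -0.89 at 30 min and -0.99 at 60 min, against 0.01, 0.02, 0.03 and 0.03 over all tested probe sets. The largest gap fell before dawn for 21 members, at 15 min for 18, at 30 min for 20 and at 60 min for 24. A member's gap varied by a median of 0.43 over the times, by less than 0.25 in 26 members and by 1 or more in 10.

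The arrays of the genotypes did not overlap at any time for 73 members, and overlapped at 1 time for 7 more. The other 3 were the defensin gene LCR67 and 248520_at, separate at 2 times, and GH3.3, separate at 1 time. For 40 members (48.2%) all 8 lhy cca1 arrays lay below all 8 WS arrays, against 0.833% of all tested probe sets. In limma, a linear model fitted to every probe set, all 83 were lower in the mean over times, beside 7.35% of all tested probe sets. Of the 83, 75 passed with the 25S rRNA signal as a covariate (3.03% of all tested probe sets then being lower). Leaving out replicate 2 of lhy cca1 also gave 75, beside 2.36%. The members' counts and shares, those on overlap included, follow from the selection and are printed for scale only. For separation at each time, no share over all tested probe sets was taken. The heat map of the members by array shows the blue lhy cca1 block on the left, and within the WS block a shift to red at 60 min in a part of the rows.

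The largest gap among named genes was that of SEC. Its product, an O-GlcNAc transferase, adds N-acetylglucosamine to nuclear and cytosolic proteins. In lhy cca1, its signals were 13.6 and 10.3 before dawn, 22.8 and 15.1 (15 min), 18.5 and 18.1 (30 min), and 34.2 and 21.1 (60 min). In WS they were 155 and 170, 207 and 209, 231 and 211, and 195 and 188 at the same times. Every lhy cca1 array was thus far below every WS array. At 2 times both lhy cca1 arrays lay under the 40th percentile of their array (19.1 to 22), here called dim, so that only a bound on the gap can be given: 7.58-fold lower or more before dawn, and 10.5-fold lower or more at 30 min. At 15 and 60 min, with 1 lhy cca1 array of 2 above that percentile, the difference was -3.49 ± 0.231 and -2.83 ± 0.231 (log2, ± standard error of the fit, here and below, with 2 arrays a group).

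SPY, the related enzyme that attaches O-linked fucose, did not share this gap. It differed by -0.07 ± 0.0713 between lhy cca1 and WS (adjusted p = 0.565). Over both genotypes SPY fell by 0.38 ± 0.101 at 60 min (adjusted p = 0.0141).

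The gene beside SEC in the reference annotation, AT3G04230, was also a member. It encodes a 40S ribosomal protein of the S16 family. Its signals in lhy cca1 were 74.7 and 86.0 before dawn, 72.4 and 88.7 (15 min), 93.9 and 91.5 (30 min), and 96.5 and 112 (60 min). In WS they were 170 and 178, 188 and 167, 213 and 171, and 208 and 190. All lhy cca1 arrays lay below all WS arrays, with a mean difference of -1.06 ± 0.079 that moved little with time, between -0.93 and -1.14. AT3G04250, on the other side of SEC, had mean signals of 0.902 in lhy cca1 and 0.799 in WS, too low to be tested, and AT3G04220, next after AT3G04230, had 12.6 and 14.7 and was not tested either.

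No other neighbours were both members. Of the genes directly beside a named member, 43 had a named probe set, and the pair of SEC and AT3G04230 was the only pair in which both were selected. By chromosome, 15 of the 39 named members lie on chromosome 1, 9 on chromosome 2, 7 on chromosome 3, 5 on chromosome 4 and 3 on chromosome 5. The tested named genes there number 2049, 1154, 1615, 1163 and 1911.

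Over the 8 group means of log2 signal, the members with the pattern most like that of SEC were AT1G10850 (Pearson r = 0.991), AT3G04230 (0.989) and 261569_at (0.982). The 8 points are 4 times in each of the genotypes, and all 4 were selected on these means for a lower level in lhy cca1. SEC was dim at 2 of the 4 lhy cca1 times and 261569_at at all 4, so r rests partly on values that are not measured levels.

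Of the members without a listed gene, 261569_at, 266719_at and 256766_at had the largest gaps of the set and were dim in lhy cca1 at all 4 times. Probe set 261569_at had signals of 1.4 to 7.95 in lhy cca1 and of 1258 to 2030 in WS. It was at least 60.0-fold lower in lhy cca1 before dawn and at least 72.7-, 86.5- and 79.8-fold lower at 15, 30 and 60 min. Probe set 266719_at had 0.37 to 8.19 in lhy cca1 and 382 to 817 in WS, at least 18.2-, 20.6-, 25- and 31.6-fold lower at the successive times. For 256766_at the signals were 0.712 to 4.52 in lhy cca1 and 55.2 to 107 in WS, and the bounds ran from 2.86-fold to 4.51-fold. In all 3, every lhy cca1 array was under the 40th percentile and every WS array above it.

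The next, 250351_at, varied more. At the successive times its signals were 36.5 and 16.9, 35.7 and 7.5, 50.8 and 2.65, and 52.1 and 30.1 in lhy cca1. In WS they were 61.6 and 113, 174 and 136, 54.7 and 72.9, and 218 and 121. The replicate 2 array in lhy cca1 was under the 40th percentile at the first 3 times, so the size of the gap is not given. One further member, 259481_at, was dim in lhy cca1 at all times. Another 8 were dim there at 1 to 3 times, 1 of which, AT2G27420, was also dim in WS before dawn, and 71 were never dim.

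A group of 10 members encode enzymes and proteins of the cell wall or of secretion, a group drawn from the members' names after their values were seen. Their mean differences ran from -0.78 to -1.45. The widest gap of the group was that of TBL26, of the TRICHOME BIREFRINGENCE-LIKE family of wall polysaccharide acetyltransferases. Its signals in lhy cca1 were 19.8 and 11.3 before dawn, 19.7 and 15.0 (15 min), 39.1 and 25 (30 min), and 80.7 and 40.6 (60 min). In WS they were 41.3 and 44.5, 49.8 and 35.0, 82.0 and 71.4, and 197 and 181. TBL26 was thus below WS at each time, with bounds of at least 2.01-fold before dawn and 1.94-fold at 15 min, since lhy cca1 was dim at both. At 60 min the difference was -1.72 ± 0.324.

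XTH32, a xyloglucan endotransglucosylase/hydrolase that cuts and rejoins wall xyloglucan, had a smaller and steadier gap of -0.78 ± 0.069. It gave 125 and 126 before dawn, 93.2 and 101 (15 min), 172 and 162 (30 min), and 285 and 285 (60 min) in lhy cca1. The WS signals were 188 and 232, 198 and 193, 265 and 268, and 424 and 517. The arrays of the genotypes were separate at each time, although lhy cca1 at 60 min was higher than WS before dawn.

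The group holds 2 pectin-related genes. AT1G23205, of the pectin methylesterase inhibitor family, had 55.6 and 55.1 before dawn, 58.8 and 64.9 (15 min), 95.8 and 81.3 (30 min), and 196 and 110 (60 min) in lhy cca1. In WS it had 90.9 and 98.5, 161 and 115, 225 and 219, and 324 and 542. Its gap was -0.77 ± 0.252 before dawn and -1.52 ± 0.252 at 60 min. AT1G60590, of the pectin lyase-like family, had 137 to 305 in lhy cca1 and 207 to 606 in WS, with a mean difference of -0.96 ± 0.0776.

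AT3G48460, a GDSL-type lipase, ranged widely in both genotypes. Its signals in lhy cca1 were 92.0 and 74.5 before dawn, 117 and 69.1 (15 min), 218 and 168 (30 min), and 604 and 493 (60 min). In WS they were 125 and 178, 217 and 231, 355 and 418, and 776 and 997. The other GDSL-type lipase, AT4G28780, was flat by contrast, with 50.4 to 68.2 in lhy cca1 and 84.4 to 124 in WS. The rest of the group were AT1G65870, of the dirigent family that guides lignan coupling, the peroxidase AT5G58390, the chitinase-family member AT2G43590 and the defensin LCR67. AT2G43590 had its widest gap before dawn, -1.98 ± 0.278, where the lhy cca1 arrays read 134 and 118 and the WS arrays 700 and 354.

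LHCB4.3, a minor antenna protein of photosystem II, was below WS on every array. It had 86.1 and 79.5 before dawn, 80 and 63.9 (15 min), 106 and 70.4 (30 min), and 101 and 64.4 (60 min) in lhy cca1. In WS it had 140 and 133, 147 and 132, 224 and 196, and 225 and 173. The gap was -0.72 ± 0.222 before dawn and -1.29 ± 0.222 at 60 min. Of the 15 genes on a list of this antenna, 3 had a probe set. LHCB4.1, its close relative, was higher in lhy cca1, at 0.32 ± 0.0614 (adjusted p = 0.00186), as were 10.9% of all tested probe sets, and LHCB4.2 did not pass, at 0.18 ± 0.0717 (adjusted p = 0.0912).

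AT1G06000 encodes UGT89C1, which adds rhamnose to flavonols, the ultraviolet-absorbing flavonoids of leaves. It had 89.0 and 63.6 before dawn, 97.0 and 78.4 (15 min), 129 and 96.4 (30 min), and 248 and 176 (60 min) in lhy cca1. The WS signals were 142 and 129, 147 and 135, 209 and 194, and 478 and 421. Its difference was -0.87 ± 0.0997 in the mean over times, with the arrays separate at each time. On a list of 21 flavonoid genes, 5 had a probe set and all 5 passed the genotype test on the lower side, beside 7.35% of all tested probe sets, with a median of -0.7 against 0.02 over all. AT1G06000 is in both the count and the median and was selected for its gap. The list was also chosen with earlier results of these data known, so the count is a description only. The other 4 were CHIL, a chalcone isomerase-like protein (-0.94 ± 0.104, adjusted p = 1.31e-05), the flavonol glycosyltransferases UGT78D1 (-0.7 ± 0.11, adjusted p = 0.000364) and UGT78D2 (-0.41 ± 0.0825, adjusted p = 0.00262), and DFR, dihydroflavonol reductase (-0.42 ± 0.126, adjusted p = 0.0287). All 5 passed with the 25S rRNA covariate. Without the lhy cca1 replicate 2 arrays UGT78D2 (adjusted p = 0.0689) and DFR (adjusted p = 0.0702) did not.

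THIC, which makes the pyrimidine part of thiamin, had 275 to 422 in lhy cca1 (median 354) and 490 to 690 in WS (median 596). The gap was -0.76 ± 0.0762, with no overlap over the 16 arrays. At the single times it lay between -0.62 and -0.85.

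GH3.3, which conjugates the hormone auxin to amino acids, was the least settled member. In lhy cca1 it had 124 and 50.5 before dawn, 137 and 69.9 (15 min), 172 and 68.3 (30 min), and 107 and 47.6 (60 min). In WS it had 201 and 118, 192 and 124, 218 and 140, and 184 and 126. In every group the replicate 1 array was the higher, and the lhy cca1 replicate 1 arrays overlapped the WS replicate 2 arrays at 3 of the 4 times. Compared within a replicate number, the gap was -0.58 for replicate 1 and -1.12 for replicate 2.

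Regulatory members included AGL87, a MADS-box factor, with 23.3 to 58.8 in lhy cca1 and 84.4 to 123 in WS, a difference of -1.31 ± 0.156. There were 3 protein kinase genes, AT1G10850, AT1G67470 and AT3G03770, with mean differences from -0.68 to -1.49. The leucine-rich repeat kinase AT1G10850 was the lowest of them, with 36.2 to 52.7 in lhy cca1 and 103 to 149 in WS and no overlap. AT1G78020, an FCS-like zinc finger gene, had 288 to 411 in lhy cca1 and 581 to 855 in WS.

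AT2G25510 and AT5G38980 have no role given here. AT2G25510 had 398 to 707 in lhy cca1 (median 520) and 1991 to 2467 in WS (median 2276), a difference of -2.11 ± 0.119, between -2.02 and -2.19 at all times. AT5G38980 had 992 to 1598 in lhy cca1 and 1857 to 2541 in WS. AT1G52000, a jacalin-type lectin, had 51.7 to 77.2 in lhy cca1 and 118 to 175 in WS. These were separate on all 16 arrays.

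Several other members with a single listed gene are given by their ranges. The RING finger gene AT5G47610 had 62.6 to 98.9 in lhy cca1 and 96.4 to 243 in WS. AT1G06450, of the CAF1 family of deadenylases that shorten the tails of messenger RNAs, had 31.5 to 59.4 in lhy cca1 and 63.5 to 74.5 in WS. Its gap was -0.32 between the replicate 1 arrays and -0.85 between the replicate 2 arrays. AT1G19960 had 43.8 to 80.1 in lhy cca1 and 93.5 to 128 in WS, and AT2G47010 had 18.3 to 32.2 in lhy cca1 and 34.6 to 50.3 in WS. AT4G35320 had 31.1 to 51.6 in lhy cca1 and 49.9 to 87.6 in WS.

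The 44 members without a single listed gene had a median gap of -0.86, against -0.95 for the 39 with one. Of the 44, 23 were separate on all 16 arrays, and of the 39, 17 were. The median of their mean WS signals was 168 without a single gene and 139 with one.

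AT1G54870 and AT3G05260, a pair of short-chain dehydrogenases, shared an uneven course in time with AT3G56350, a manganese superoxide dismutase. AT1G54870 gave 94.6 and 37.5, 87.9 and 33.3, 53.4 and 21.7, and 68.1 and 57.2 at the successive times in lhy cca1. In WS it gave 86.6 and 110, 193 and 159, 91.0 and 77.2, and 236 and 156. In WS all 3 genes had both arrays at 15 and 60 min above both arrays at 30 min. The genotype gap of AT1G54870 was -0.89 between the replicate 1 arrays and -1.77 between the replicate 2 arrays. These 3 were picked out after their values were seen, and their common course was not tested. It was not particular to them. In WS, 248520_at had means of 131 at 15 min, 57.3 at 30 min and 187 at 60 min. For 263175_at they were 78.7, 48.1 and 100.

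Many of the members rose after dawn in both genotypes, a change the genotype condition did not use. The WS signal minimum did take in the arrays after dawn, and some members, such as AT2G27420, met it only through later arrays. In the mean of the genotypes, 28 of 83 (33.7%) were higher at 60 min after dawn than at 15 min before it, at an adjusted p under 0.05 in limma, while 6.92% of all tested probe sets were. A single member, AT1G65490 (1.2%), was lower, against 9.93% of all tested probe sets, and 54 did not pass. The median change of the members was 0.36 log2, and that of all tested probe sets was -0.02. Since members had to be bright in WS, the same shares were taken over the 10886 tested probe sets with a mean WS signal of 40 or more, and were 7.93% higher and 11.4% lower.

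In all 28, both arrays at 60 min lay above both arrays before dawn in each genotype, and the changes ran upward of 0.47, with a median of 1.04 log2. The 28 were called on these same arrays, so their separation largely follows from the call and is a description only. In 20 of the 28 the lhy cca1 mean at 60 min was above the WS mean before dawn. Their median genotype gap was -0.84 before dawn and -0.99 at 60 min. Of the 28, 14 have a single listed gene.

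Within the genotypes taken singly, 24 members (28.9%) were higher and 2 (2.41%) lower at 60 min in lhy cca1, against 4.32% and 5.2% of all tested probe sets. In WS, 23 (27.7%) were higher and 2 (2.41%) lower, against 3.54% and 5.38%. A total of 23 members passed in the same direction in both genotypes, 3 in lhy cca1 alone, 2 in WS alone and none in opposite directions. Whether the changes differed between genotypes was not tested. The lhy cca1 count rests partly on 1 array, since 14 members in place of 26 passed in either direction without the lhy cca1 replicate 1 array at 60 min. The plot of the change in lhy cca1 against the change in WS shows most of the 28 close to the line of equal change.

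**Figure D1:**
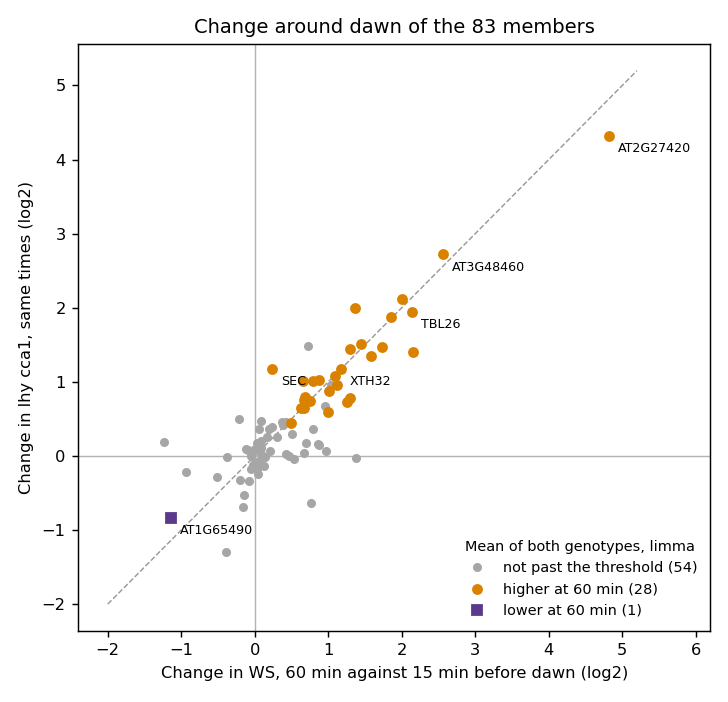
Change in signal from 15 min before dawn to 60 min after it, in lhy cca1 (vertical axis) and WS (horizontal axis), as log2 differences of the means of 2 arrays, for each of the 83 members. The dashed line marks equal change; 28 members (orange) were higher and 1 (purple square) lower in the mean of the genotypes in limma, and 54 (grey) did not pass.

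At 15 min 0 members passed in limma in either direction, against 0.0874% of all tested probe sets higher and 0.181% lower. At an unadjusted p under 0.05 there were 13 members (15.7%), against 7.04% of all tested probe sets. At 30 min 18 members (21.7%) were higher, against 1.98% of all tested probe sets. All 18 were among the 28 of 60 min. A single member, 259481_at, was lower at 30 min (1.2%, against 2.5% of all tested probe sets), and it was dim in lhy cca1. The count at 30 min depended on single arrays. Of the 19 members that passed in either direction, 12 did so without the WS replicate 1 array before dawn, and 9 without either WS array at 30 min or without the lhy cca1 replicate 2 array before dawn.

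The steepest rise was that of AT2G27420, a papain-type cysteine protease gene. Its signals were 5.54 and 7.5 before dawn, 13.0 and 6.78 (15 min), 35.6 and 28.9 (30 min), and 165 and 101 (60 min) in lhy cca1. In WS they were 10.1 and 12.7, 29.8 and 29.5, 104 and 129, and 330 and 311. The change at 60 min was 4.57 ± 0.212 log2 (adjusted p = 3.21e-10). Because both genotypes were dim before dawn, the fold is a bound, at least 6.04-fold in lhy cca1 and at least 15.7-fold in WS. At 30 min the change was already 2.83 ± 0.212 (adjusted p = 1.87e-07). AT2G27420 met the WS signal minimum only through its WS arrays at 30 and 60 min. Its p-values are therefore not independent of the selection.

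AT3G48460, the GDSL-type lipase above, rose by 2.64 ± 0.164 log2 at 60 min (adjusted p = 8.46e-09), 6.59-fold in lhy cca1 and 5.9-fold in WS. TBL26 rose by 2.04 ± 0.229 (adjusted p = 5.68e-06), at least 2.68-fold in lhy cca1, where it was dim before dawn, and 4.4-fold in WS. XTH32 rose by 1.17 ± 0.0975 (adjusted p = 1.94e-07), or 2.27-fold in lhy cca1 and 2.24-fold in WS. Of the 10 cell wall and secreted members 6 rose at 60 min and none fell, beside 33.7% and 1.2% of all members and 6.92% and 9.93% of all tested probe sets. Since the group was drawn with these values known, the count is a description only. Besides AT3G48460, TBL26 and XTH32 the risers were AT1G65870, AT1G23205 and AT1G60590.

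AT1G65870, of the dirigent family, had 24.7 and 20 before dawn, 31.6 and 20 (15 min), 53.0 and 48.3 (30 min), and 92.1 and 72.4 (60 min) in lhy cca1. In WS it had 46.8 and 48.4, 47.4 and 59.5, 88.0 and 106, and 163 and 183. Both genotypes rose by nearly the same log2 step, 1.87 ± 0.221 in lhy cca1 and 1.86 ± 0.221 in WS. AT1G23205 rose by 1.78 ± 0.178 (adjusted p = 1.61e-06) and AT1G60590 by 1.04 ± 0.11 (adjusted p = 2.8e-06).

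AT3G28270, of a plant family of unassigned function, had 18.1 and 5.53, 14.9 and 16.0, 21.5 and 21.2, and 47.9 and 39.4 at the successive times in lhy cca1. The WS signals were 28.5 and 18.8, 26.0 and 22.1, 47.8 and 49.6, and 107 and 80.2. It rose by 2.06 ± 0.277 at 60 min (adjusted p = 4.2e-05), at least 2.03-fold in lhy cca1. AT3G28270 too met the WS signal minimum only through its WS arrays at 30 and 60 min, so its p-value is not independent of the selection. Of the members without a listed gene, 262883_at (1.68, adjusted p = 3.6e-06) and 253922_at (1.48, adjusted p = 1.19e-08) rose most.

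The flavonol gene AT1G06000 rose by 1.6 ± 0.141 at 60 min (adjusted p = 3.65e-07). Of the other 4 flavonoid genes measured, 3 rose at 60 min, beside 6.92% of all tested probe sets: CHIL at 0.8 ± 0.147, UGT78D2 at 1.64 ± 0.117 and UGT78D1 at 1.45 ± 0.156. DFR did not pass (0.1 ± 0.179, adjusted p = 0.771). The median of the 5, AT1G06000 included, was 1.45 log2, and that of all tested probe sets was -0.02. These counts too are a description only, since the list was chosen with earlier results known.

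Not all members followed. LHCB4.3 did not pass at 60 min (0.25 ± 0.157, adjusted p = 0.327), with -0.04 ± 0.222 in lhy cca1 and 0.53 ± 0.222 in WS. AT2G25510 (-0.01 ± 0.168), THIC (0.2 ± 0.108) and the 3 kinase genes did not pass either. SEC passed in the mean of the genotypes, at 0.71 ± 0.163 (adjusted p = 0.00552), but its lhy cca1 arrays were dim before dawn, which leaves a bound of at least 1.26-fold there. In WS its change was 0.24 ± 0.231 (adjusted p = 0.606).

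AT1G65490 went down. In lhy cca1 it had 234 and 267 before dawn, 258 and 248 (15 min), 201 and 219 (30 min), and 135 and 145 (60 min). In WS it had 456 and 549, 349 and 528, 423 and 531, and 182 and 283. Both genotypes were lower at 60 min, by -0.84 ± 0.206 in lhy cca1 and -1.14 ± 0.206 in WS, and the mean change was -0.99 ± 0.146 (adjusted p = 0.000107). Its course is drawn beside those of the risers in the plot of signal by time.

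**Figure D2:**
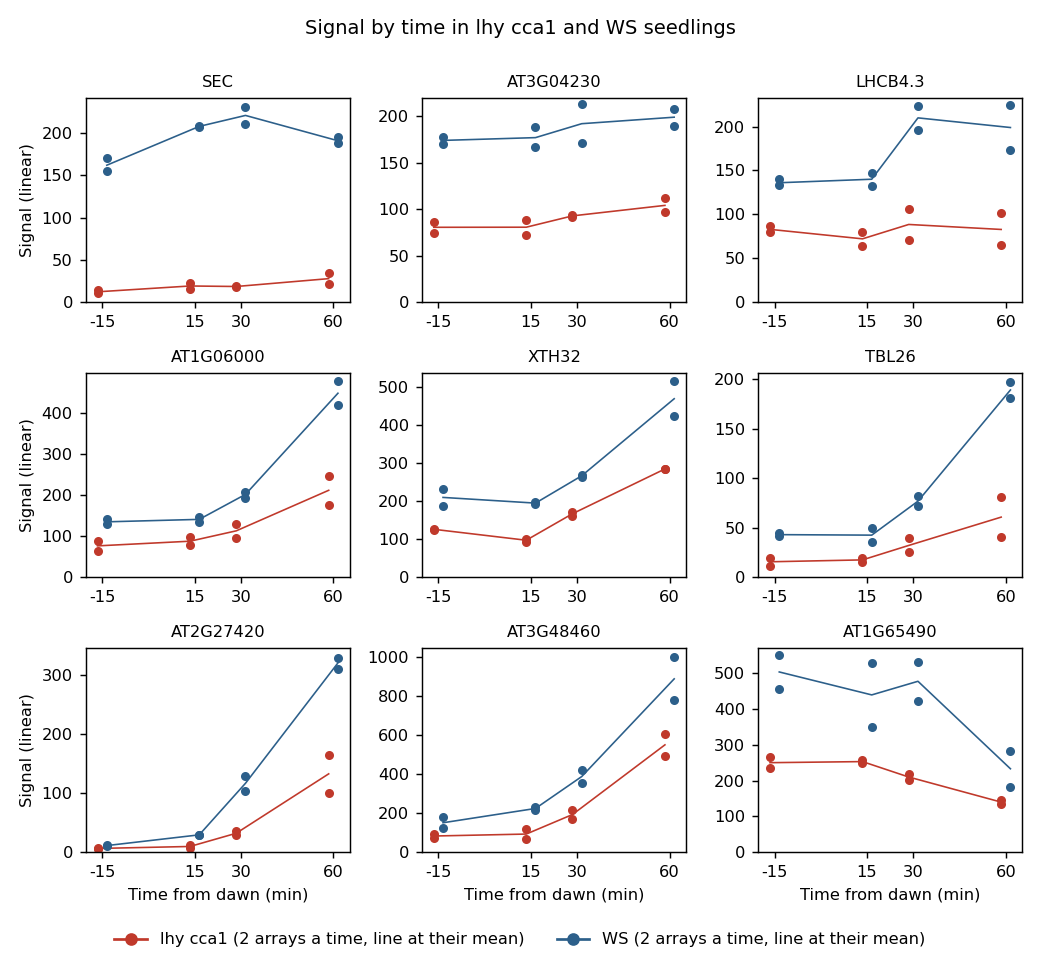
Linear signal of 9 members by time from dawn in lhy cca1 (red, drawn slightly left) and WS (blue), 2 arrays a time as points, with a line through their mean. All 9 lie below WS in the mean at every time, as the selection required. AT1G06000, XTH32, TBL26, AT2G27420 and AT3G48460 rise in both genotypes, and AT1G65490 falls in both.

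The mirror set, chosen by the same rule turned round, had a larger share of falls after dawn than the members. It holds 153 probe sets higher in lhy cca1 by at least 0.5 at all 4 times, with a mean signal of 40 or more on the 8 lhy cca1 arrays. At 60 min 15 of them (9.8%) were higher and 45 (29.4%) lower, with a median of -0.2, beside 6.92% and 9.93% of all tested probe sets. At 30 min the counts were 8 (5.23%) and 24 (15.7%), beside 1.98% and 2.5%. The difference between the sets was not tested.

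Other pathways with a daily rhythm gave few named probe sets. Their gene lists were chosen with earlier results of these data known, so the counts are descriptions only. On a list of 21 aliphatic glucosinolate genes, 4 had a probe set and 3 were tested. All 3 passed the genotype test on the lower side, beside 7.35% of all tested probe sets, without meeting the selection rule. GSTU20, a glutathione transferase of this pathway, differed by -0.45 ± 0.089, BCAT4, which starts methionine chain elongation, by -0.41 ± 0.116, and AT2G31790, the glucosyltransferase UGT74C1, by -0.32 ± 0.0809 (adjusted p = 0.00233, 0.0215 and 0.0105). With the 25S rRNA covariate GSTU20 alone passed (adjusted p = 0.0377), and without the lhy cca1 replicate 2 arrays none did (0.0989 to 0.244). Of 21 clock genes 2 were tested, of which GI was higher in lhy cca1, at 1.61 ± 0.216 with dim signals at the early times, and AT5G52660, the gene of RVE6, did not pass (0.02 ± 0.112). No member is on the clock, cycling DOF factor or cold response lists. Of 12 cold response genes 3 were tested, 2 of them higher in lhy cca1, beside 10.9% of all tested probe sets, and none lower. COR47, a dehydrin, passed in both alternatives, while COR15B, a chloroplast protein, did not (adjusted p = 0.101 with the covariate and 0.0668 without those arrays). The 1 tested cycling DOF factor, AT1G26790, passed the genotype test on the lower side, as did 7.35% of all tested probe sets. Its difference was -2.3 ± 0.445 (adjusted p = 0.00186), and -0.79 to -4.56 at the single times. Its signals were 0.251 to 19.5 in lhy cca1 (median 8.4) and 10.1 to 50.8 in WS (median 31.6). Most lhy cca1 signals were thus in the dim range, which leaves the size of the gap uncertain. With the 25S rRNA covariate it passed narrowly (adjusted p = 0.0496).

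How large the genotype gap was depended on the replicate number. Between the replicate 1 arrays alone, the median gap of the members was -0.76, 33 members were past the limit of -0.5 at all 4 times and 26 more at 3 times. Between the replicate 2 arrays alone, the median was -1.09, with 73 past the limit at 4 times and 9 more at 3. The gap was larger in replicate 2 for 72 of the 83. In direction, 78 members were below WS at every time in replicate 1 and 83 in replicate 2. These counts largely follow from the selection, which used the means of the same arrays, and are a description only. The lhy cca1 replicate 2 arrays are also those with the higher 25S rRNA signal, and with that signal as a covariate in limma the median gap of the members was -0.75 in place of -0.91. All 83 kept a negative difference and 75 passed, while the calls over all tested probe sets fell to 1182, against 2709 without the covariate. Without those 4 arrays the median gap was -0.76, 75 members passed and 873 probe sets passed in all. The rule itself then gave 42 probe sets, 39 of them members. Applied without the 4 lhy cca1 replicate 1 arrays, it gave 126, with 76 members among them.

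The gap of AT3G04230 was -1.21 in replicate 1 and -0.9 in replicate 2. For SEC, 6 of the 8 lhy cca1 arrays were under the 40th percentile, so no gap is given by replicate. The plot of the gaps by replicate number shows most members below the line of equal gaps.

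**Figure D3:**
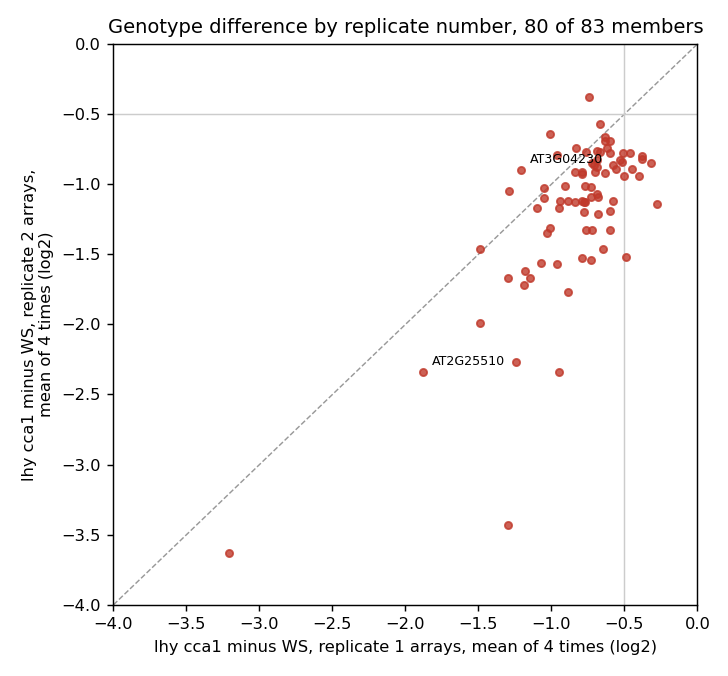
Genotype difference of each member, lhy cca1 minus WS, as the mean of 4 times in log2, between the replicate 2 arrays (vertical axis) and between the replicate 1 arrays (horizontal axis). Of the 83 members 80 are drawn, leaving out 3 with a mean difference below -4; signals under the 40th percentile are drawn as measured, grey lines mark the limit of -0.5, the dashed line marks equal gaps, and 72 of all 83 members have the larger gap in replicate 2.

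The rule's edge cut through a continuous range of values. The members nearest the limit were AT4G30470, with a smallest gap of -0.5021 before dawn, AT2G35820 with -0.5027 and 262733_s_at with -0.5065. Just outside lay UGT71B1, a glucosyltransferase gene, with -0.4988 at 15 min, 250832_at with -0.4986 and AT1G73600 with -0.4966 at 30 min. AT4G30470, although at the edge of the selection, rose clearly at 60 min, by 1.09 ± 0.115 (adjusted p = 2.87e-06).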

How the data were processed

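Total RNA was labelled with biotin by the one-cycle protocol and hybridised to 16 ATH1 arrays, per the labels' protocols. The deposited table holds linear intensity, computed with MAS5 and GCOS, per the submitters' processing notes, with versions not given in the sources used here. From the values, arrays had been scaled to a common level. Of 22810 probe sets, 64 controls (0.281%) were left out.

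From these, log2 values without an offset were computed. Probe sets above their array's 40th percentile on at least 2 arrays were tested (14878). A model of 8 group means was fitted with limma 3.58.1 under R 4.3.3 (eBayes with intensity trend, 8 residual degrees of freedom), 2-sided, with Benjamini-Hochberg adjustment over all tested probe sets and a threshold of 0.05. Changes around dawn are the mean of both genotypes unless 1 is named. The model was checked on simulated data. For a dim group the fold is a bound, taken against its own signal or the 40th percentile, whichever was higher. The number of arrays limits the precision.

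Genes were named through the array's annotation table, with 1 gene for 13513 probe sets and several for 503, of which 13436 single genes matched the TAIR10.1 gene table given here, used for names and neighbours only. Members and gene lists were chosen with earlier results of these data known. Named were the 12 lowest members with 1 gene, members with symbols or on a list, the 4 lowest without a gene, up to 5 rises and 5 falls at 60 min, of which 1 fall passed, neighbours, and 3 probe sets on either side of the limit. Other named members were chosen after their values were seen.

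Alternatives were other array scalings, an offset of 16, other limits, filters and variance settings, arrays left out, a replicate block and the 25S rRNA signal as a covariate. Replicate numbers were not taken to pair the samples: the correlations of same-numbered deviations between groups ran from -0.0163 to 0.269, and the block is an alternative only. Promoter motifs were not analysed here.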

Additional observations from a re-analysis of the deposited data

How the results depend on the processing

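The selection depended on its limits and on the arrays. With each array centred on its median the rule gave 129 probe sets, including all 83, since the array medians were 0.09 log2 higher in lhy cca1 than in WS. Without the 4 lhy cca1 replicate 2 arrays it gave 42, without the 4 replicate 1 arrays 126, and with only the replicate 1 arrays 38. Limits of -0.4, -0.75 and -1 gave 133, 29 and 13. Leaving out single arrays gave 64 to 93. Quantile normalization, an offset of 16, only replicate 2 arrays and WS minimums of 20 and 80 stayed within 1.5 times of 83. Of the 83 members lower in the mean over times, 60 to 83 passed under the alternatives, 60 being all those tested where all 16 arrays had to be above the 40th percentile. Over all probe sets the genotype calls numbered 2709, with 1182 under the 25S rRNA covariate and 873 without the lhy cca1 replicate 2 arrays. At 15 min, members past the threshold numbered 1 after quantile normalization, 1 with the replicate block, and 0 to 1 without single arrays (2 without the 4 lhy cca1 arrays of either replicate number). At 30 min the 19 became 12 where all 16 arrays had to be above the 40th percentile, which left 60 members to test, 11 without the intensity trend, and 9 to 21 without single arrays. At 60 min the 29 stayed between 21 and 36 under all alternatives, with 35 under the replicate block and 36 with the 25S rRNA covariate. In WS the 25 stayed between 19 and 31. In lhy cca1 the 26 became 16 without the 4 replicate 2 arrays and 14 to 27 without single arrays. With an array left out, the lone array of its group is assumed to vary like the other groups. The changes of AT2G27420, AT3G48460, AT3G28270, TBL26, AT1G65870 and AT1G65490 at 60 min kept direction and threshold under all alternatives run. The causes of these shifts were not tested. Replicate numbers shared between groups were not taken to pair the samples. The replicate block gave 23 members at 30 min, and 3087 genotype calls over all tested probe sets in place of 2709. The planned promoter motif alternatives were not run, since no promoter sequences were used here. Dim signals in lhy cca1 limit 12 members to bounds at 1 or more times.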
